A study of Mus musculus with 6 samples.

Results

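The macrophage scavenger and clearance receptors are surface and secreted proteins with which macrophages bind modified lipoproteins, free haemoglobin, microbes and dying cells. Marco, Msr1, Cd163, Cd5l, Mrc1, Stab1, Mertk, Axl, Timd4 and Adgre1 were chosen by name, with earlier results of these data known. All 10 genes were measured, by 15 probe sets out of the 45037 tested, each probe set carrying exactly 1 gene symbol in the platform annotation. Of the genes, 3 had several probe sets: Msr1 had 4, Marco 2 and Axl 2. Each of the 6 arrays held bone marrow RNA of adult female F1 mice: (AKR/J x FVB/NJ)F1 for 3 arrays (AKR F1) and (DBA/2J x FVB/NJ)F1 for the other 3 (DBA F1). The groups share the FVB/NJ parent, so each gene had an FVB/NJ copy in every sample, beside a copy from AKR/J or from DBA/2J. No treatment set the groups apart: all tissue was snap frozen after cervical dislocation under Avertin. The comparison asks for differences in basal expression between the genotypes. The labels do not tie arrays to animals or pools, so p-values measure only the spread between these samples, which may be technical.

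Marrow macrophages sit at the centre of erythroblastic islands, where they take up the nuclei that maturing red cells expel, and they clear aged neutrophils and other dying cells. Receptors of this kind either bind a cargo directly, as the class A scavenger receptors do, or recognise phosphatidylserine on a dying cell, alone or through a bridging ligand. Mertk, Axl and Tyro3 are tyrosine kinases of the second kind, and their ligands Gas6 and protein S (Pros1) link them to the dying cell.

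Marco, Stab1 and Mertk were higher in AKR F1, and none of the 10 genes was lower in limma. These were 3 of 10 genes read from the brightest probe set and 3 of 15 probe sets, against 13.1% of all 18193 genes (7.90% higher and 5.23% lower) and 12.3% of all probe sets (5.57% higher and 6.73% lower). All 10 genes lay above the median probe set level, and of the 11549 genes above it 19.4% passed. The other 7 genes did not pass: Cd5l, Timd4 and Axl had differences of 0.27 to 0.40 (all differences here are AKR F1 minus DBA F1 in log2 units), Mrc1, Cd163 and Msr1 had differences of -0.40 to -0.29, and Adgre1 had 0.02. The median over the 10 genes was 0.29, beside 0.06 over all genes. Because the genes were chosen with earlier results of these data known, these shares and medians are a description and not a test. The test was limma's moderated test over all probe sets adjusted by Benjamini-Hochberg, at a threshold of 0.05. Fewer cells of a type and less RNA per cell cannot be told apart in whole marrow. Without AKR F1 replicate 3 none of the 10 genes passed in limma (4 at an unadjusted p under 0.05) and without AKR F1 replicate 2 only Marco did, while 3.74% and 4.19% of all probe sets passed in those fits.

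**Figure D1:**
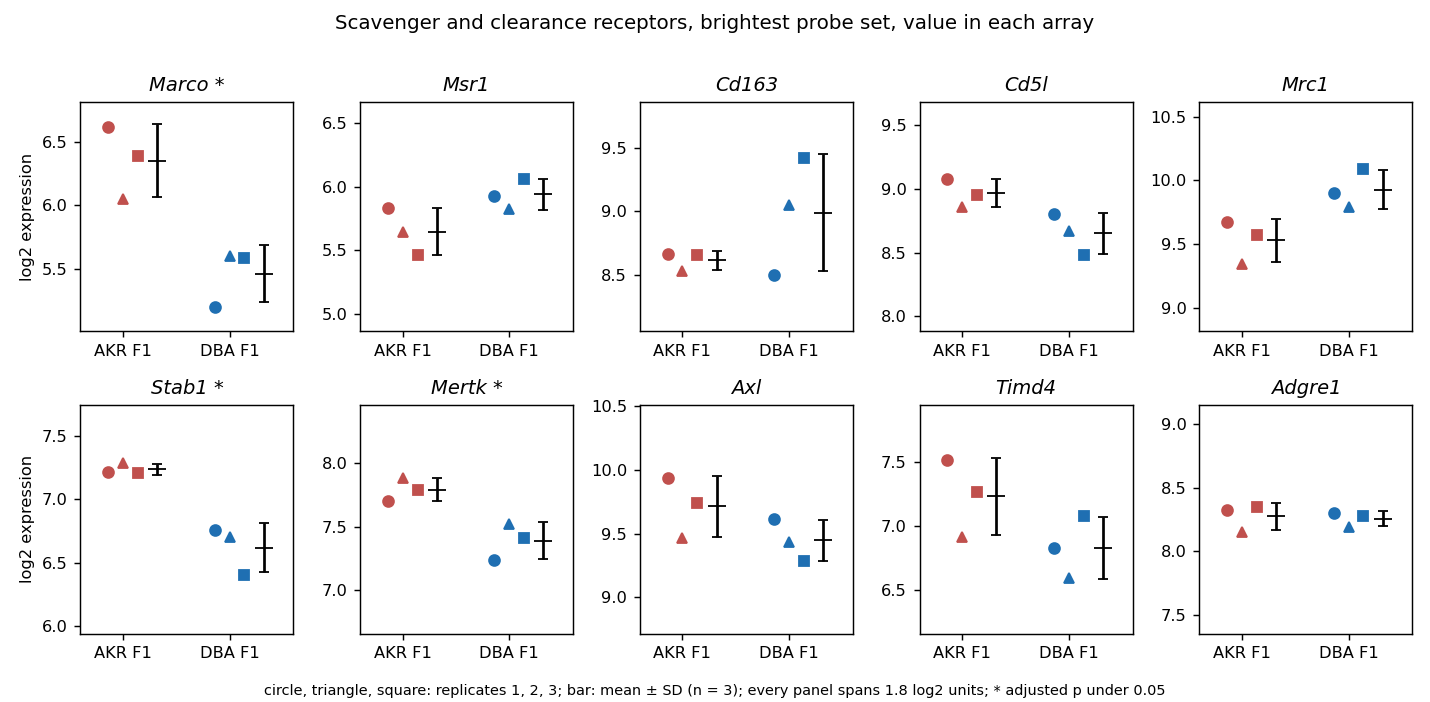
The log2 expression of each of the 10 genes at its brightest probe set (vertical axis, log2 units, the same span in every panel) is plotted for the 3 AKR F1 and the 3 DBA F1 arrays, with replicates 1 to 3 as circle, triangle and square and the mean ± SD (n = 3) as a bar. The Marco, Stab1 and Mertk points of AKR F1 lie above all those of DBA F1, the Mrc1 points lie below, and the Adgre1 points of the groups lie at the same level.

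The arrays themselves were alike in scale, with medians from 5.14 to 5.19 and lower quartiles from 3.68 to 3.75. The means of marrow markers were high in all 6 arrays: that of 8 measured neutrophil markers lay between 13.37 and 13.73 and that of 8 erythroid markers between 10.85 and 11.07. Of the erythroid markers, Hba-a1, named after its values were seen, was dim at its probe set, between 3.55 and 3.88. The mean of 16 monocyte and macrophage markers ran from 9.10 to 9.34 in AKR F1 and from 9.15 to 9.30 in DBA F1. A pair of technical and tissue measures separated the groups. The 3' to 5' index, the mean 3' minus 5' signal of 6 control transcripts, was 1.25, 2.03 and 1.80 in AKR F1 and 1.23, 1.09 and 1.03 in DBA F1. The mean of 10 skeletal muscle markers was 6.88 to 8.19 in AKR F1 and 8.97 to 11.77 in DBA F1, highest in DBA F1 replicate 1.

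The stretches before the start sites of the genes that passed, and of Mrc1, which had the lowest difference, are shown because Spi1 encodes PU.1, the factor that macrophage genes are known for, and its PU box can be looked for there. They are the 250 bases before the RefSeq start in GRCm38.p6, the C57BL/6J reference, which is none of the parent strains here, and lie at chr1:120505025-120505274 (minus strand), chr14:31168642-31168891 (minus strand), chr2:128698665-128698914 (plus strand) and chr2:14229164-14229413 (plus strand). They are written 5′ to 3′ along the gene, and capitals mark each PU box (GAGGAA, or TTCCTC on the other strand).
Marco: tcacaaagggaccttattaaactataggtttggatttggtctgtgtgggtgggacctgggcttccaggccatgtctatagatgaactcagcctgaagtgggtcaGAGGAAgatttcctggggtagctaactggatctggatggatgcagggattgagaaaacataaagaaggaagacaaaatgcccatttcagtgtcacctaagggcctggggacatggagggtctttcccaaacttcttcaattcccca
Stab1: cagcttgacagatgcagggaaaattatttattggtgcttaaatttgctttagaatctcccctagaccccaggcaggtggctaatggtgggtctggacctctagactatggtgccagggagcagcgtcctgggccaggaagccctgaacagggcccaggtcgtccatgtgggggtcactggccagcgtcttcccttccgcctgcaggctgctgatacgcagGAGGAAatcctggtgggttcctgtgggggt
Mertk: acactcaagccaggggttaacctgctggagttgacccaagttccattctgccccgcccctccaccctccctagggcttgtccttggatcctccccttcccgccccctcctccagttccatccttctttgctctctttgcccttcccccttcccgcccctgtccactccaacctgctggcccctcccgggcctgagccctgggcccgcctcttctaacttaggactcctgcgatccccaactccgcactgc
Mrc1: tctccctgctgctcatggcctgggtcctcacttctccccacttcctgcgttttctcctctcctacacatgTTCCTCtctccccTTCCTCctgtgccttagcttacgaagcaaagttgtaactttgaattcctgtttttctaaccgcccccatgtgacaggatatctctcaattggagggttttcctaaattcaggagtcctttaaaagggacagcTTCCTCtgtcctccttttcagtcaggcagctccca

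Marco held 1 PU box, which began 146 bases before its start, and Stab1 held 1, which began 30 bases before. Mrc1 held 3, at 180, 167 and 35 bases, and Mertk held none. Mertk held 3 GC boxes (GGGCGG or CCGCCC), a motif of housekeeping promoters, and its stretch was 63.6% G and C, beside a median of 52.4% over all promoters. Mrc1 and Axl held 1 GC box each, so that it was found in 3 of 8 members, against 32.7% of all promoters. Of the 8 members in the promoter table, Cd5l and Axl also held a PU box, so that it was found in 5, against 23.3% of 32851 promoters of the same length. Cd163 and Timd4 held none. Marco, which was higher, held the letters, and so did Mrc1, whose difference was negative and did not pass. The part of the PU box in the differences was not tested. Spi1, named here for its motif and not by the naming rule, was at 9.98, 9.91 and 9.80 in AKR F1 and at 9.61, 9.37 and 8.26 in DBA F1, and its difference of 0.82 (SE 0.30) did not pass (adjusted p = 0.121 in limma).

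Among the class A scavenger receptors, trimeric proteins with a collagen-like stalk, Marco was higher and Msr1 did not pass. Marco, a receptor of resident macrophages for bacteria and unopsonised particles, read 6.62, 6.04 and 6.38 on the AKR F1 arrays, here and below in the order of replicates 1 to 3, and 5.20, 5.60 and 5.58 on the DBA F1 arrays. Every AKR F1 array was above every DBA F1 array. The DBA F1 values lay little above the medians of those arrays (5.15 to 5.19), and no detection calls were used. The difference was 0.88 (SE 0.17, 95% interval 0.50 to 1.27, adjusted p = 0.0149 in limma), a 1.85-fold higher level, and it was the largest among the 15 probe sets. Of 6 fits that each dropped an array it passed in 5, and it missed without AKR F1 replicate 3 (0.87, adjusted p = 0.0645 in limma). The second Marco probe set, 1458297_s_at, was dim, at 4.84, 4.40 and 4.31 in AKR F1 and at 4.24, 4.25 and 4.22 in DBA F1. Its groups did not overlap either, and its difference of 0.28 (SE 0.14) did not pass (adjusted p = 0.233 in limma). Variants of the parent strains within probe sequences, which can alter hybridisation, were not analysed here, for Marco or any gene below.

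Msr1, the receptor for modified low density lipoprotein, was read by 4 probe sets, and they did not point one way. The brightest, 1448061_at, was at 5.83, 5.64 and 5.47 in AKR F1 and at 5.93, 5.83 and 6.07 in DBA F1, and the groups overlapped. Its difference was -0.29 (SE 0.12, 95% interval -0.56 to -0.02, adjusted p = 0.155 in limma). Probe set 1422062_at, almost as bright, differed by 0.03 (95% interval -0.20 to 0.26), and the dimmer 1425434_a_at and 1425435_at differed by -0.08 and -0.21, and none of these passed. The log2 ratio of Marco to Msr1 within an array was 0.78, 0.40 and 0.92 in AKR F1 and -0.73, -0.22 and -0.48 in DBA F1. These did not overlap, and the exact permutation test gave p = 0.10, the smallest it allows with 3 against 3 arrays (two-sided, adjusted p = 0.167 over the 5 pairs of receptors compared). The pairs were chosen after the values were seen.

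**Figure D2:**
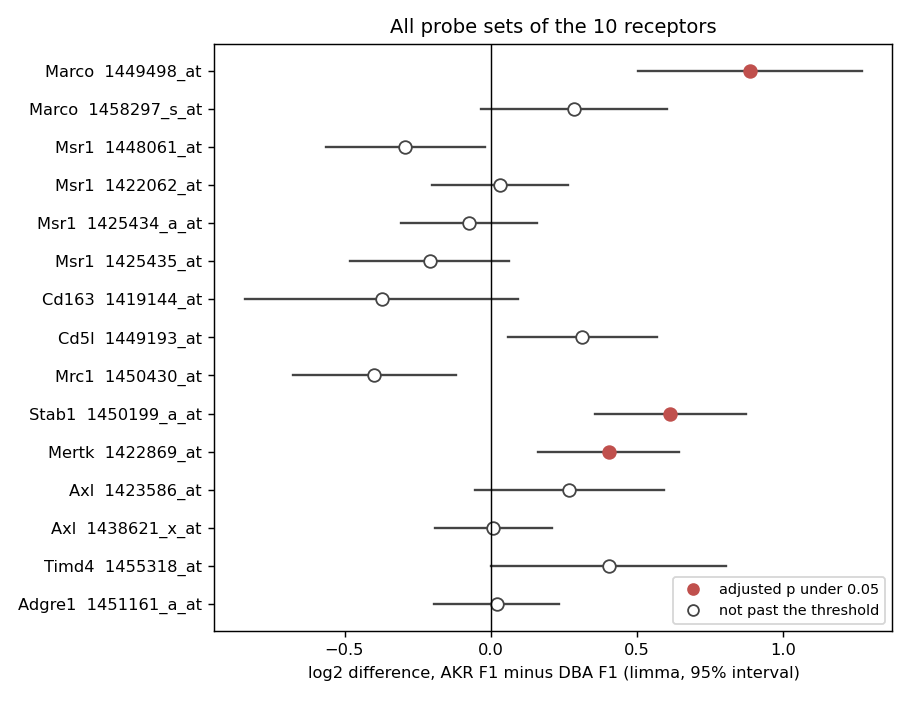
The log2 difference, AKR F1 minus DBA F1, of each of the 15 probe sets (horizontal axis, log2 units) is drawn with its 95% interval from limma, filled where the adjusted p was under 0.05. The filled points are Marco 1449498_at (0.88), Stab1 (0.61) and Mertk (0.40), and the 4 Msr1 probe sets spread from -0.29 to 0.03.

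Neither Cd163 nor Cd5l, which share the scavenger receptor cysteine-rich (SRCR) fold, passed, and their signs were opposite. Cd163, the macrophage receptor for haemoglobin bound to haptoglobin, was at 8.66, 8.53 and 8.65 in AKR F1 and at 8.50, 9.05 and 9.42 in DBA F1. The AKR F1 arrays were tight (SD 0.07) and the DBA F1 arrays wide (SD 0.46), with DBA F1 replicate 1 below all AKR F1 arrays and the other two above them. The difference was -0.37 (SE 0.20, 95% interval -0.84 to 0.09, adjusted p = 0.285 in limma). Without DBA F1 replicate 1 it was -0.62 and passed (adjusted p = 0.0263 in limma), and without DBA F1 replicate 3 it was -0.16 (adjusted p = 0.579 in limma). Cd5l, the secreted macrophage protein also called AIM, was at 9.08, 8.86 and 8.95 in AKR F1 and at 8.80, 8.67 and 8.48 in DBA F1. All AKR F1 arrays were above all DBA F1 arrays, but the difference of 0.31 (SE 0.11) did not pass (adjusted p = 0.110 in limma). The log2 ratio of Cd163 to Cd5l ran from -0.42 to -0.30 in AKR F1 and from -0.30 to 0.93 in DBA F1 (exact permutation p = 0.20, 0.25 adjusted over the 5 pairs). Hp, whose product haptoglobin delivers haemoglobin to Cd163, had a difference of 0.34 and narrowly missed (adjusted p = 0.0531 in limma). In a limma fit of 1 probe set per gene, where 15.2% of all genes passed, Hp passed (adjusted p = 0.0443). Hp was named after its values were seen.

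The mannose receptor and the stabilin were on opposite sides. Mrc1, which takes up mannosylated glycoproteins and is known as a marker of alternatively activated macrophages, was at 9.67, 9.34 and 9.57 in AKR F1 and at 9.90, 9.79 and 10.09 in DBA F1. The AKR F1 arrays were all below the DBA F1 arrays. The difference of -0.40 (SE 0.12, 95% interval -0.68 to -0.12) did not pass (adjusted p = 0.0696 in limma, and from 0.073 to 0.22 when 1 array was left out). The log2 ratio of Mrc1 to its relative Mrc2, a collagen receptor, ran from 2.01 to 2.66 in AKR F1 and from 2.85 to 4.02 in DBA F1, without overlap (exact permutation p = 0.10, the smallest possible, 0.167 adjusted over the pairs). Mrc2 itself was at 7.01, 7.33 and 6.99 in AKR F1 and at 7.05, 5.76 and 6.24 in DBA F1, with overlap. Its difference of 0.76 did not pass (adjusted p = 0.126 in limma). Mrc2 thus made up more of the ratio's difference than Mrc1 did. Resident macrophages of muscle are also known to carry Mrc1 and Cd163, and of the 10 muscle markers 8 were lower in AKR F1, without overlap, while Ckm and Acta1 overlapped. With the muscle mean as a covariate the difference of Mrc1 was -0.42 and that of Cd163 -0.925 (adjusted p = 0.432 and 0.221 in limma). With the 3' to 5' index as a covariate they were -0.17 and -0.14 (adjusted p = 0.736 and 0.904 in limma). Both covariates differ between the groups, so their part in these differences cannot be told apart from the genotype.

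Stab1, which clears matrix fragments and oxidised lipoprotein and binds phosphatidylserine, was at 7.22, 7.28 and 7.20 in AKR F1 and at 6.76, 6.70 and 6.40 in DBA F1. The AKR F1 arrays lay within 0.1 of each other and the groups were well apart. The difference was 0.61 (SE 0.11, 95% interval 0.36 to 0.87, adjusted p = 0.0134 in limma), a 1.53-fold higher level. It passed in 4 of 6 such fits and missed without AKR F1 replicate 2 (adjusted p = 0.0582) or replicate 3 (adjusted p = 0.0552). Its relative Stab2, a receptor of sinusoidal endothelium, differed by 0.02 (95% interval -0.22 to 0.26). The log2 ratio of Stab1 to Stab2 did not overlap between the groups, at -1.05 to -0.74 in AKR F1 and -1.69 to -1.33 in DBA F1 (exact permutation p = 0.10, the smallest possible, 0.167 adjusted). Endothelium is also known to express Stab1, and of 9 endothelial and stromal markers only Kdr passed, higher by 0.48. The markers went both ways: 5 of the 9 had a positive difference, and the differences ran from -0.40 to 0.65 (median 0.02). The mean of those markers ran from 8.72 to 8.87 in AKR F1 and from 8.61 to 8.90 in DBA F1, and their part in the result was not tested.

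Of the phosphatidylserine receptors other than Stab1, Mertk was higher, and Axl and Timd4 did not pass. Mertk, the kinase that tethers and engulfs apoptotic cells in resting macrophages, was at 7.70, 7.88 and 7.79 in AKR F1 and at 7.23, 7.52 and 7.41 in DBA F1. The lowest AKR F1 array was above the highest DBA F1 array. The difference was 0.40 (SE 0.10, 95% interval 0.16 to 0.64, adjusted p = 0.0419 in limma), a 1.32-fold higher level. This call was close to the threshold: it was lost in each of the 6 fits that left out 1 array, with adjusted p from 0.0547 without DBA F1 replicate 2 to 0.146 without AKR F1 replicate 2, while the difference stayed between 0.33 and 0.47. A variance trend with robust estimation also ended it (adjusted p = 0.0541 in limma).

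Axl, the kinase that acts in inflamed tissue, was at 9.94, 9.46 and 9.74 in AKR F1 and at 9.62, 9.44 and 9.29 in DBA F1. The groups overlapped, and the difference of 0.27 (SE 0.14, 95% interval -0.05 to 0.59) did not pass (adjusted p = 0.267 in limma). Its other probe set, 1438621_x_at, lay below the lower quartile of the arrays, between 2.72 and 2.87, where no difference could be read. The log2 ratio of Mertk to Axl overlapped between the groups (difference 0.13, exact permutation p = 0.70, also after adjustment over the pairs). With 3 against 3 arrays this test cannot go below 0.10, so it does not show whether Mertk and Axl changed unequally. Timd4, which binds phosphatidylserine without a bridging ligand and marks long-lived resident macrophages, was at 7.52, 6.91 and 7.27 in AKR F1 and at 6.83, 6.59 and 7.08 in DBA F1. Its spread within the groups was wide, they overlapped, and the difference of 0.40 (SE 0.18) did not pass (adjusted p = 0.182 in limma). Timd4 and Mertk thus had differences of the same size, on a pooled SD of 0.28 for Timd4 and 0.12 for Mertk.

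Adgre1, which encodes the F4/80 antigen used to identify mouse macrophages, was even across the arrays, at 8.33, 8.16 and 8.35 in AKR F1 and at 8.31, 8.19 and 8.27 in DBA F1. The difference was 0.02 with a 95% interval from -0.19 to 0.23 (adjusted p = 0.918 in limma). Csf1r, the receptor for the macrophage growth factor, had a difference of 0.10 (95% interval -0.11 to 0.30) at its brightest probe set and of 0.27 and 0.42 at the dimmer ones, and none of these passed (adjusted p = 0.54, 0.244 and 0.14 in limma). Of the 16 measured monocyte and macrophage markers, only Aif1, a calcium-binding protein of macrophages, passed, higher by 0.61. The median difference of the 16 was 0.01. Aif1 kept its call in only 1 of 6 fits with an array dropped, that without DBA F1 replicate 1. Itgam, named after its values were seen, missed at the threshold (difference -0.999, adjusted p = 0.050 in limma) and passed, lower, in a limma fit of 1 probe set per gene (adjusted p = 0.0415), where 15.2% of all genes passed.

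Groups that did not overlap were found for 5 of the 10 genes at the brightest probe set, Marco, Stab1, Mertk and Cd5l above and Mrc1 below, against 36.7% of all genes (23.0% with AKR F1 above). Of the 15 probe sets 6 did not overlap, against 33.0% of all probe sets. Within AKR F1 replicate 1 was the highest for 7 of the 10 genes and replicate 2 the lowest for 7. This order was not counted over all genes, so it cannot be called a trait of the members. Stab1 and Mertk were instead highest in replicate 2 and Adgre1 in replicate 3, and the lowest values of Msr1 and Stab1 were in replicate 3 and that of Mertk in replicate 1. Replicate 2 also had the highest 3' to 5' index and the lowest mean of the macrophage markers in AKR F1, and their part in this order was not tested. In DBA F1 the highest and lowest values were spread over all 3 arrays. The pooled within-group SD was 0.33 for Cd163, 0.28 for Timd4 and 0.26 for Marco, beside a median of 0.13 over all genes, and 0.09 for Adgre1.

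**Figure D3:**
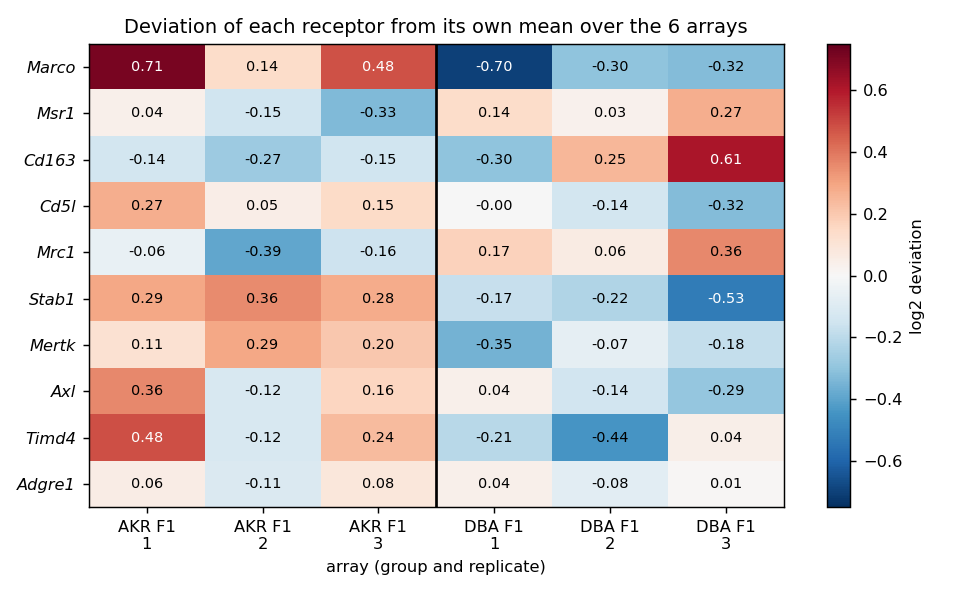
Each cell gives the deviation of a gene in an array from its own mean over the 6 arrays (colour, log2 units), with genes in rows and arrays in columns, AKR F1 replicates 1 to 3 left of the line and DBA F1 right. Marco, Stab1 and Mertk are above their mean in all AKR F1 arrays, Mrc1 and Cd163 below, and AKR F1 replicate 2 is the lowest AKR F1 array for 7 of the 10 genes.

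With the 3' to 5' index as a covariate no member gene passed in limma (4 at an unadjusted p under 0.05), and 0.249% of all probe sets did. The differences were then 1.33 for Marco (adjusted p = 0.0506 in limma), 0.52 for Stab1 and 0.32 for Mertk. With the muscle mean as a covariate none passed (2 at an unadjusted p under 0.05) and 0.135% of all probe sets did, and the differences were 0.43, 0.72 and 0.21. Both covariates separate the groups, so their effect and that of the genotype cannot be told apart in 6 arrays.

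Other genes of the clearance pathway were read from 5 lists with 66 measured genes, of which 6 were higher and 2 lower. The median of the 66 was 0.11. That is 8 of 66 beside 13.1% of all genes, a share near the background. Of the 66 genes 60 lay above the median probe set level, where 19.4% of genes passed. Without AKR F1 replicates 1, 2 and 3 the 8 calls became 4, 2 and 1. Without DBA F1 replicates 1, 2 and 3 they became 13, 3 and 7. Of all probe sets 8.7%, 4.19% and 3.74% passed in the former fits, and 12.4%, 6.55% and 8.96% in the latter.

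Ligands and opsonins held 5 of the 8 calls among 10 genes, 3 higher and 2 lower. This list too was chosen with earlier results of these data known, so the count is a description. The C1q chains, which opsonise dying cells, were higher: C1qc by 0.95, C1qb by 0.75 and C1qa by 0.65 (adjusted p = 0.0137, 0.0341 and 0.0389 in limma). The other C1qb probe sets differed by 0.29 and 0.17 and did not pass. Pros1, the protein S ligand of Mertk and Tyro3, was lower, at 7.14, 7.13 and 7.15 in AKR F1 and at 7.47, 7.77 and 7.58 in DBA F1 (-0.46, SE 0.10, adjusted p = 0.0230 in limma). Mertk and its ligand gene thus lay on opposite sides in the same arrays. Gas6, the ligand of all the kinases of the family, had a difference of 0.28 (95% interval -0.05 to 0.61) and did not pass, and Mfge8, which bridges phosphatidylserine to integrins, had 0.27 and did not pass. Tyro3 was dim and differed by 0.03 (95% interval -0.17 to 0.24). Thbs1, the gene of thrombospondin, which links dying cells to macrophage integrins and Cd36, was lower by a difference of -0.78 (adjusted p = 0.00765 in limma), and its second probe set differed by -1.18 and passed too.

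Of 28 other scavenger and clearance receptors only Lrp1 passed (median of the 28, 0.05). Lrp1, an endocytic receptor for lipoproteins, protease complexes and C1q-coated cells, was at 8.54, 8.72 and 8.85 in AKR F1 and at 8.21, 7.84 and 7.55 in DBA F1 (higher by 0.84, SE 0.17, adjusted p = 0.0174 in limma). A dimmer probe set had a difference of 0.30, short of the threshold. Of 13 measured genes of engulfment and digestion none passed in limma (median 0.03), and 7 had an unadjusted p under 0.05. Elmo2, a partner of Dock1 in engulfment, had the smallest p of these (0.34, adjusted p = 0.0534 in limma). It passed in a limma fit of 1 probe set per gene (adjusted p = 0.0445), where 15.2% of all genes passed, and in 1 of 6 fits with an array dropped. Crk, an adaptor upstream of Elmo2 and Dock1, differed by -0.39 (adjusted p = 0.0786 in limma). Another Crk probe set was at -0.69 and past the test, and a dim one was at 0.32 and past it. Hmox1 and Slc40a1, which break down heme and export its iron from macrophages, differed by 0.39 and -0.15 and did not pass.

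Of 9 measured macrophage transcription factors 1 was higher. Nr1h3, which encodes LXR alpha, the sterol sensor that clearing macrophages use and that is known to induce Mertk, was at 6.41, 6.13 and 6.15 in AKR F1 and at 5.68, 5.89 and 5.57 in DBA F1 (higher by 0.52, SE 0.12, adjusted p = 0.0298 in limma). Spic, the factor of iron-recycling macrophages, differed by -0.12 and did not pass. Of 6 genes of brakes and shedding 1 was higher: Sirpa, the inhibitory receptor for the don't-eat-me signal Cd47, had a difference of 0.45 (adjusted p = 0.0270 in limma), while differences of 0.30 and -0.06 at further probe sets did not pass. Cd47 itself had a difference of 0.07 at a mean level of 12.34, and its dimmer probe sets disagreed. One at a mean level of 11.59 differed by 0.54 and one at 5.34 by -0.71, both past the test. With each array dropped in turn, Thbs1 passed in all 6 fits, C1qc in 5, Lrp1 in 3, Pros1 in 2 and C1qa, C1qb, Nr1h3 and Sirpa in 1 each. The highest adjusted p of each gene in those fits lay between 0.037 for Thbs1 and 0.12 for C1qa.

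**Figure D4:**
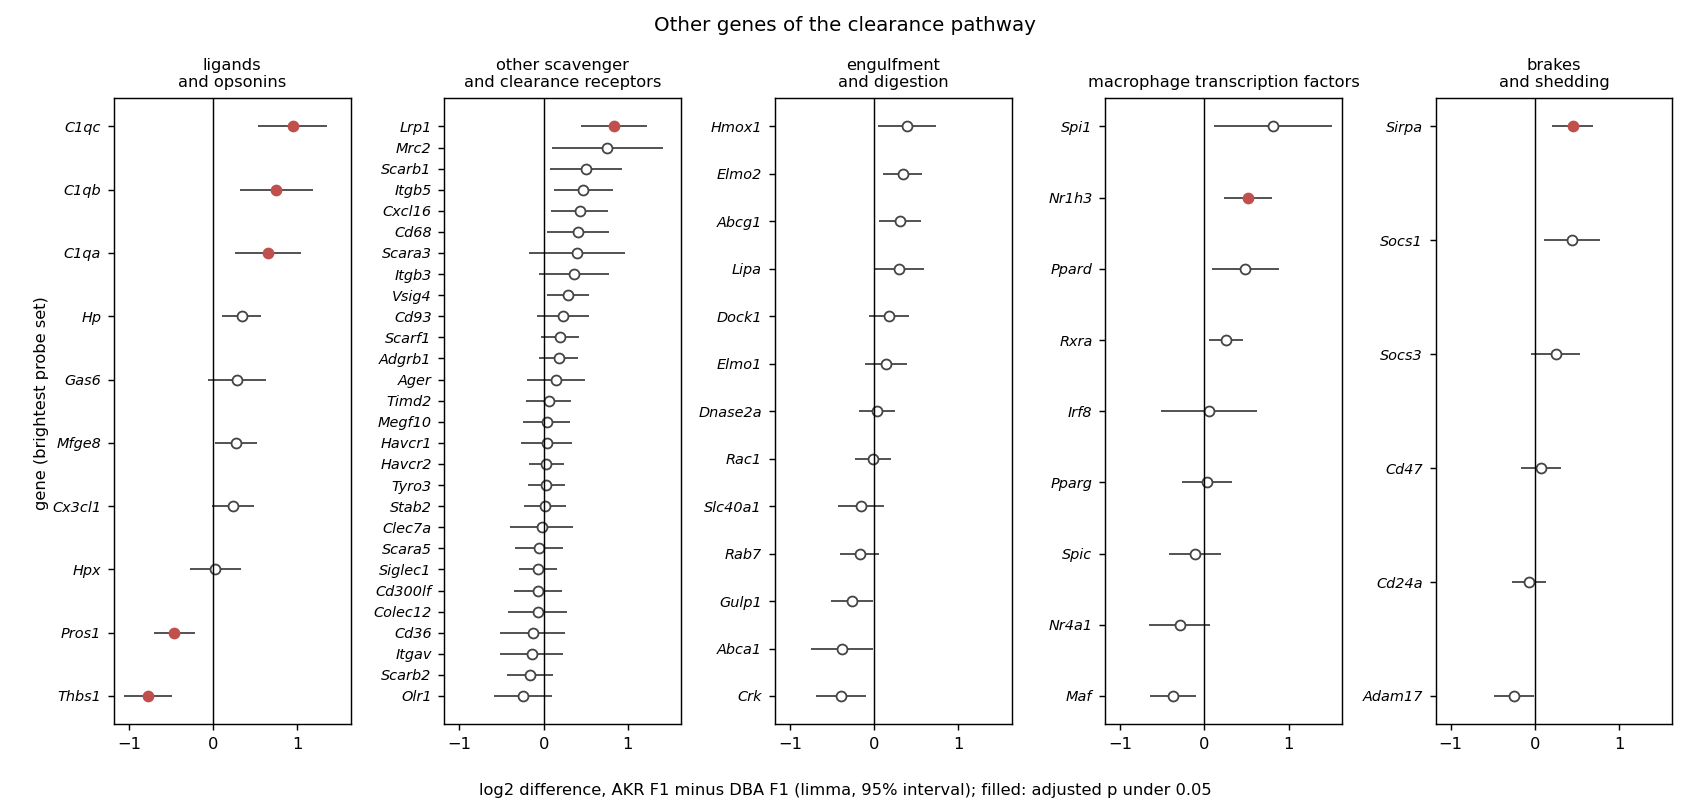
The log2 difference, AKR F1 minus DBA F1, of each gene in the 5 pathway lists (horizontal axis, log2 units, 95% interval from limma) is drawn in 1 panel per list, with genes on the vertical axis and filled points where the adjusted p was under 0.05. Filled points are C1qa, C1qb, C1qc, Pros1 and Thbs1 among the ligands and opsonins, and Lrp1, Nr1h3 and Sirpa in the other panels.

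The genes whose level over the 6 arrays ran most like that of each member past the test were sought among 11548 genes above the median probe set level. For Marco these were Spire2 (Pearson r 0.9934), Susd6 (0.9924) and Kcnc1 (0.9858). For Stab1 they were Snord104 (0.9995), B3gat3 (0.9993) and Smarcd1 (0.9989), and 105 genes had an r over 0.99. For Mertk they were Mrps18b (0.9961), Fbxo7 (0.9942) and Acy1 (0.9939). The 6 points share the group difference and the arrays, so these values are a description.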

How the data were processed

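Per the labels' protocols, Trizol-extracted total RNA of snap-frozen marrow was biotin-labelled, and each sample was read on its own Affymetrix array. The authors' deposited values are log2 expression of 45101 probe sets in 6 arrays, already on a common scale (overall range 2.26 to 14.88). RMA and MAS5 are named in the submitters' processing notes, and their roles, versions and any batches are not given in the sources used here.

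The 64 control probe sets were left out. Symbols were updated through gene IDs to the GRCm38.p6 gene table (18032 of 18193 genes matched). Differences were tested with limma 3.58.1 in R 4.3.3 (lmFit, eBayes, two-sided, 4 residual degrees of freedom, Benjamini-Hochberg over 45037 probe sets, threshold 0.05) and checked on simulated data. A gene was read from its brightest probe set over all arrays. No detection calls were used, and 6 arrays limit the precision. Promoters came from RefSeq, for 8 of 10 members.

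The members and lists were chosen with earlier results of these data known. Genes named were all members, list genes past the test (up to 20 pathway genes), the 2 with the smallest p of a list without calls, and the pathway genes Gas6, Pros1, Mfge8, Tyro3, Hmox1, Slc40a1, Spic, Cd47, Sirpa and Csf1r, and the 3 genes most like each called member. Marker lists covered monocytes and macrophages, neutrophils, erythroid cells, B cells, T and NK cells, dendritic cells, osteoclasts, endothelium with stroma, and skeletal muscle. Alternatives were other normalizations, filters, variance models, thresholds, a replicate block, covariates and leaving out each array. Same-numbered arrays deviated together with r of 0.053, 0.017 and 0.084, and differently numbered ones with r from -0.123 to 0.046. These correlations over all probe sets do not settle whether the numbers pair samples.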

Additional observations from a re-analysis of the deposited data

How the results depend on the processing

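Of the 10 receptor genes 3 passed, and 2 or 3 did under both other normalizations, both filters, the variance trend and array weights. With 1 probe set per gene or averaged probe sets 3 passed. At a threshold of 0.10 the count was 4, with Mrc1 lower and the others higher. The count was 0 at a threshold of 0.01 and 0 with the 3' to 5' index or the muscle mean as a covariate, for genes and for probe sets (limma, 2 to 7 at an unadjusted p under 0.05). Leaving out 1 array gave 0 to 3, among them Cd163, lower, without DBA F1 replicate 1. Of all probe sets 12.3% passed in the main fit and 11.8% to 12.9% with the other normalizations. The share was 12% with the variance trend, 16.8% with array weights, 18.8% at 0.10 and 2.7% at 0.01. It was 0.249% with the index, 0.135% with the muscle mean and 3.74% to 12.4% without 1 array. With the median and quartile filters 24.7% and 16.6% of those kept passed. Per gene, 15.2% passed with 1 probe set and 16.1% with the mean. The 8 pathway calls became 16 with array weights, 1 and 17 at thresholds of 0.01 and 0.10, 0 with the index (11 at an unadjusted p under 0.05), 1 with the muscle mean, and 1 to 13 without 1 array. They became 10 with quantile normalization, the filter at the median level or 1 probe set per gene, and 11 with averaged probe sets. The macrophage marker count of 1 became 2 with either filter, the variance trend or 1 probe set per gene, 3 with array weights or averaged probe sets, 4 at a threshold of 0.10, and 0 at 0.01 or with either covariate (5, 3 and 1 at an unadjusted p under 0.05). It was 0 to 1 without 1 array. The cause of these changes was not tested. A fit with the replicate block called 3 receptor genes, 9 pathway genes and 4 markers, and whether the numbers pair samples is not known. Marco, Stab1 and Mertk kept their sign in every alternative run on their brightest probe set.

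Signs turned in differences that had not passed, and in the muscle genes Tnni2 (0.30) and Ttn (0.073) with the muscle mean, which holds them. Msr1 1422062_at became -0.026 with array weights and -0.158 with the muscle mean, and ran from -0.041 to 0.084 without 1 array. Msr1 1425434_a_at became 0.034 with either covariate. Axl 1438621_x_at became -0.011 with quantile normalization and -0.027 with the index, and ran from -0.028 to 0.041 without 1 array. Adgre1 ran from -0.016 to 0.081 and Tyro3 from -0.012 to 0.072 without 1 array. Tyro3 became -0.061 with the index and -0.027 with the muscle mean, and with the index Slc40a1 became 0.057 and Spic 0.198. The cause was not tested. Signal limits the second Axl probe set, below the lower quartile of the arrays, and Tyro3, Msr1 1425435_at and the second Marco probe set, below their medians.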

Other observations

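The marker lists of other cells were read from the brightest probe set in limma, beside 13.1% of all genes past the test. Of 8 neutrophil markers Elane, the gene of neutrophil elastase, was higher in AKR F1 (difference 0.82), and of 8 erythroid markers Alas2, the first enzyme of heme synthesis in red cells, and Gata1 were higher (0.35 and 0.68). Of 9 B cell markers Cd79a was higher (1.32) and Ms4a1 and Ebf1 were lower (-0.99 and -0.86), and of 5 T and NK cell markers Cd3e and Cd4 were higher (0.56 and 0.38). None of 6 dendritic cell markers and none of 7 osteoclast markers passed in limma, with 1 and 2 at an unadjusted p under 0.05. Of 9 endothelial and stromal markers Kdr was higher (0.48). Of 10 skeletal muscle markers Myh4, Myh1, Tnnc2, Tnnt3, Tnni2, Myl1, Ttn and Neb, 8 in all, were lower, and the median of the 10 was -2.84.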
